A study of Mus musculus with 12 samples.

Results

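The transcriptome of mouse BV2 cells given LPS with 10 µM 6-shogaol was compared with that of BV2 cells given LPS with 30 µM 6-gingerol. The comparison uses 4 of the 12 RNA-seq libraries of the study, 2 for each treatment, and covers all 12705 genes with enough counts to be tested. BV2 is an immortalized mouse microglial line. Cells of all 12 libraries, untreated ones included, were seeded 24 h before a medium change and spent at least 4 h in serum-free medium. Cells of the compound groups received the compound and were given LPS at 100 ng/mL 1 h later. The time of harvest is not given in the labels. The LPS group, 2 libraries, received LPS and no compound, and the untreated group, 2 libraries, received neither. No vehicle is named, and nothing states whether the replicates were separate cultures, so that p-values measure the spread between these samples only. The gingerol dose was 3-fold the shogaol dose, and the contrast is therefore of compound and dose together, which cannot be told apart here. It asks for which genes the higher dose of 6-gingerol reached the level seen with the lower dose of 6-shogaol.

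6-Gingerol and 6-shogaol are phenols of ginger that share their aromatic ring and chain. 6-Shogaol arises from 6-gingerol by loss of water, which leaves an α,β-unsaturated ketone in place of the β-hydroxy ketone, and such unsaturated ketones can react with thiol groups. LPS, the endotoxin of Gram-negative bacteria, is sensed by TLR4 with its co-receptor CD14. Signalling from the adaptor MyD88 activates NF-kB and mitogen-activated kinases and turns on cytokine and chemokine genes within a short time. Signalling from the adaptor TRIF activates IRF3, which turns on interferon beta, and the secreted interferon then acts through its receptor on a second wave of antiviral genes, among them the gene of the transcription factor IRF7. Many genes, Cxcl10 and Ccl5 among them, take input from NF-kB and from interferon factors.

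The upstream sequences of 4 genes that were lower with 6-shogaol are shown because they belong to genes with the clearest differences. They are those with the smallest adjusted p among the called genes that have an entry in the promoter table of RefSeq (build GRCm38.p6), which held 23 of the 30 genes called lower. Each is the 250 bases before the annotated start, 5′ to 3′ on the strand of the gene. Capitals mark matches to the core of the interferon-stimulated response element, GAAANNGAA, and to a kB site, GGNNTTTCC, searched on both strands. The interferon core was in 7.13% and the kB site in 4.93% of all 32851 promoter windows of this length. The core of the antioxidant response element, TGACNNNGC, was searched as well and is not marked. It was in 10.2% of the windows and had a match in those of Cxcl10 and Rsad2. Not all called genes hold such letters: of the 23 windows, 7 had the interferon core, 5 a kB site and 6 the antioxidant core, and that of Oasl1, the next gene by p, had none of the marked letters. With entries for only 23 of the 30 genes, a comparison of these counts with all windows would be void. The positions are chr5:30012864-30013113 on the plus strand for Il6, chr5:92348890-92349139 on the minus strand for Cxcl10, chr4:156200819-156201068 on the minus strand for Isg15 and chr12:26456453-26456702 on the minus strand for Rsad2.
Il6: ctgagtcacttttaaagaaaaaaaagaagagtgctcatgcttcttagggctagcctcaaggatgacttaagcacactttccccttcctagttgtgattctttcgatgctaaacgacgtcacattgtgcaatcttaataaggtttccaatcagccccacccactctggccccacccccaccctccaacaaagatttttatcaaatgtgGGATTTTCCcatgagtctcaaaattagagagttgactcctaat
Cxcl10: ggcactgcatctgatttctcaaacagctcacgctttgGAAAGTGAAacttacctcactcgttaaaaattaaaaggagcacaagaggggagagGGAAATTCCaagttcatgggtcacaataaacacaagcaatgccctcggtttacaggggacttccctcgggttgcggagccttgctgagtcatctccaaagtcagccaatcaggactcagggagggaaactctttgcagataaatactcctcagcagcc
Isg15: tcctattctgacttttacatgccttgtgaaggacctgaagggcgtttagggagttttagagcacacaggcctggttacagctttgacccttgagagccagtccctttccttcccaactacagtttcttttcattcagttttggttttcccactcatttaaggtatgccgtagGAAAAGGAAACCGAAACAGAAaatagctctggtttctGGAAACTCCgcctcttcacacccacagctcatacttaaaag
Rsad2: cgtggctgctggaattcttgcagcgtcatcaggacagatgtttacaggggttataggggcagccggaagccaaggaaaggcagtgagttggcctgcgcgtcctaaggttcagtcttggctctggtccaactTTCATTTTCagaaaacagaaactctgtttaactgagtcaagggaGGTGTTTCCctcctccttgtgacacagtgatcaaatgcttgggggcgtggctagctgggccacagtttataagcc
The Il6 window held a kB match 43 to 35 bases before the start and no interferon core. The Isg15 window held 3 overlapping interferon cores, which together ran 78 to 58 bases before the start, and a kB match at 41 to 33 bases. In the Cxcl10 window the interferon core lay 213 to 205 and the kB match 158 to 150 bases before the start, and in the Rsad2 window they lay 119 to 111 and 75 to 67 bases before it. A match is a run of letters, not a measured binding site.

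Total expected counts were 16534960 and 19876803 in the 6-shogaol libraries and 18723488 and 19870189 in the 6-gingerol libraries, and those of all 12 libraries ran from 16534960 to 21179867. The microglial markers Csf1r (557 and 578 CPM with 6-shogaol, 501 and 443 CPM with 6-gingerol) and Itgam (197 and 212 CPM with 6-shogaol, 206 and 207 CPM with 6-gingerol) were high, while Cx3cr1 and P2ry12, markers of microglia in the brain, stayed under 1 CPM in all 4 libraries. CPM, the count of a gene scaled to a common library size, is the unit of all levels. Of 9 neuron markers none was expressed enough to be tested, and Aqp4, Rbfox3, Snap25, Mog, Cd3e and Ly6g had no count in the 4 libraries. The summed level of the 25 microglia markers was 2385 to 2454 CPM with 6-shogaol and 2374 to 2396 CPM with 6-gingerol. The summed level of 10 fibroblast and endothelial markers was 160 to 166 CPM with 6-shogaol and 133 to 140 CPM with 6-gingerol, nearly all of it from Kdr, and that of 9 astrocyte markers was 87.5 to 94.6 CPM with 6-shogaol and 79.6 to 85.7 CPM with 6-gingerol. Their part in the results was not tested. The mean fragment length was 247 and 248 bases in the 6-shogaol libraries and 249 and 223 bases in the 6-gingerol libraries.

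Between the treatments, 31 genes passed the test (edgeR, adjusted p under 0.05 over all genes tested). With 6-shogaol 30 genes were lower, 0.236% of those tested, and 1 gene was higher, 0.00787%. Of the 30 lower genes 29 belonged to the LPS-induced genes, defined from the LPS and untreated libraries alone as those higher with LPS by at least 1 on the log2 scale at an adjusted p under 0.05. The list of lower genes held 14 members of the interferon lists, 9 of the inflammatory lists, and the p53 target Mdm2. It ranged from -2.27 for Rtp4 to -0.54 for Tnf in log2 fold change, 6-shogaol over 6-gingerol. The genes Cfb, Il6, Cxcl10, Isg15, Rsad2, Oasl1, Rtp4, Ccl5 and Oasl2 had the smallest p-values, and these 9 stayed past the threshold in all 14 alternative analyses. Fewest calls were seen for Ifitm3 and Heatr9 (5 of 14), Ddx58 (6), Oas1a and Phf11b (7) and Ifit1 (8). With library totals in place of the scaling, Ifitm3, Heatr9, Ddx58 and Oas1a were not called (adjusted p = 0.058, 0.0646, 0.0704 and 0.0746). Irf7, Ifi27 and Il1rn were not called without 6-shogaol replicate 2 (adjusted p = 0.0843, 0.0866 and 0.0866), and Tnf and Mdm2 were not called when any 1 of the 4 libraries was left out. The length of the list depended on each library: 13 genes were called without 6-shogaol replicate 1, 10 without 6-shogaol replicate 2, 17 without 6-gingerol replicate 1 and 17 without 6-gingerol replicate 2. The median half-width of a 95% interval was 0.29 on the log2 scale, so that smaller differences in a single gene were often not detectable at this depth and replication. A call at the adjusted p took more: the smallest called difference was that of Tnf, -0.54, while Lcn2 at -0.63 was not called.

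The LPS-induced genes as a class lay lower with 6-shogaol than with 6-gingerol. There were 370 of them, 2.91% of the genes tested. Their median log2 difference, 6-shogaol over 6-gingerol, was -0.32 with quartiles of -0.65 and -0.12, while the median over all genes tested was 0.00. Of the 370 genes, 29 (7.84%) were called lower and 0 higher. The 29 became 13 without 6-shogaol replicate 1, 9 without 6-shogaol replicate 2, 15 without 6-gingerol replicate 1 and 17 without 6-gingerol replicate 2. In 246 (66.5%) both 6-shogaol libraries lay below both 6-gingerol libraries, a separation that 19.9% of all genes tested showed, and in 16 (4.32%) both lay above, against 19.1% of all genes. The 95% interval of the difference lay below 0 for 145 LPS-induced genes (39.2%) and above 0 for 5 (1.35%), beside 3.63% and 2.15% of all genes tested. A near-equal level, meaning an interval wholly within a 1.5-fold difference either way, was found for 118 LPS-induced genes (31.9%) and for 72.2% of all genes tested.

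The size of the difference went with the size of the LPS response. Among the 43 genes that LPS had raised by 4 or more on the log2 scale, 12 (27.9%) were called lower with 6-shogaol, the median difference was -0.87, and 1 gene was near equal. Among the 102 genes raised by 2 to 4 there were 10 calls (9.80%) and a median of -0.50. Among the 225 genes raised by 1 to 2 there were 7 calls (3.11%) and a median of -0.25. Of 79 genes lowered by LPS 0 were called by edgeR and 1, Rasgrp3, by DESeq2. Their median difference was 0.07. Intervals lay above 0 in 9 (11.4%) and below it in 1 (1.27%), beside 2.15% and 3.63% of all genes tested. An interval that leaves out 0 stands for an unadjusted p under 0.05. Both 6-shogaol libraries lay above both 6-gingerol libraries in 26 (32.9%) and below both in 11 (13.9%), beside 19.1% and 19.9% of all genes. Near equal were 9 (11.4%), beside 72.2% of all genes tested.

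**Figure D1:**
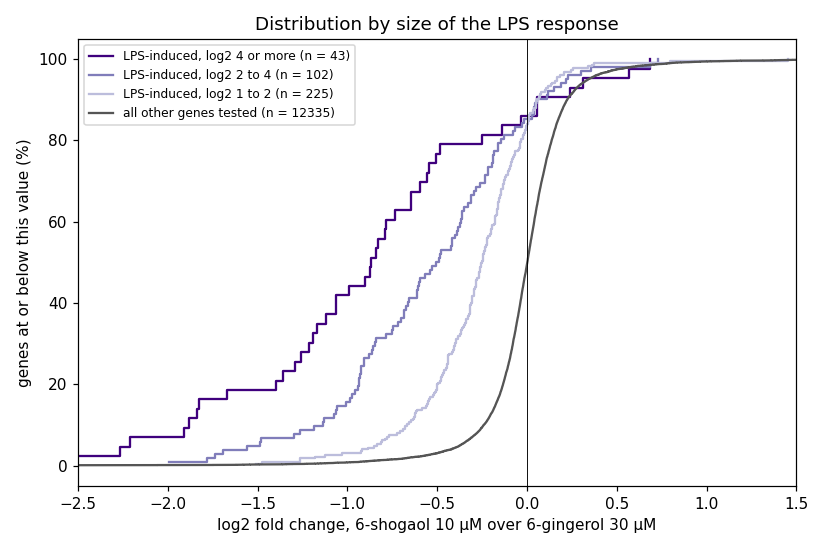
Cumulative share of genes (vertical axis, percent) by log2 fold change of 10 µM 6-shogaol over 30 µM 6-gingerol (horizontal axis), for LPS-induced genes in 3 classes of LPS response and for all other genes tested. The curves of the LPS-induced genes lie left of the other genes, with medians of -0.87, -0.50 and -0.25 from the strongest to the weakest LPS response.

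The antiviral effectors of the interferon response formed the biggest share of the called genes. Of 44 listed genes 38 were tested, 13 were lower with 6-shogaol in edgeR (17 in DESeq2) and 0 higher, and the median log2 difference was -0.63. Both 6-shogaol libraries lay below both 6-gingerol libraries in 36 of the 38, beside 19.9% of all genes tested. Near equal were 5 of the 38, beside 72.2% of all genes tested. Isg15, a ubiquitin-like protein that is attached to other proteins, had 37.0 and 34.6 CPM with 6-shogaol, 92.1 and 79.2 CPM with 6-gingerol, 105 and 96.1 CPM with LPS and 5.18 and 5.12 CPM without treatment. The treatments did not overlap, and the 6-gingerol libraries lay just under the LPS libraries (log2 fold change of 6-shogaol over 6-gingerol -1.26, SE 0.13, 95% interval -1.53 to -0.98, adjusted p = 0.000221). Rsad2, the radical SAM enzyme viperin, had 192 and 181 CPM with 6-shogaol, 345 and 337 CPM with 6-gingerol, 350 and 390 CPM with LPS and 9.80 and 10.0 CPM without treatment. It fell by 0.87 (SE 0.09, adjusted p = 0.000351).

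The OAS family, enzymes and enzyme-like proteins that answer double-stranded RNA, contributed 4 of these genes. Oasl1 had 62.3 and 63.9 CPM with 6-shogaol, 126 and 116 CPM with 6-gingerol and 130 and 138 CPM with LPS, and Oasl2, 11006 bases away on chromosome 5, had 13.5 and 14.7 CPM with 6-shogaol, 32.0 and 29.9 CPM with 6-gingerol and 28.6 and 35.3 CPM with LPS. Their log2 differences between the treatments were -0.94 and -1.13 (adjusted p = 0.000387 and 0.000461). Oas3 was at 24.6 and 27.0 CPM with 6-shogaol, 50.2 and 47.4 CPM with 6-gingerol and 41.0 and 48.1 CPM with LPS (-0.92, adjusted p = 0.0043). In Oas3 the mean with 6-gingerol was above that with LPS. Oas1a showed the smallest difference of the called members, -0.59 (adjusted p = 0.0455, called in 7 of 14 alternatives), and shares much of its sequence with Oas1g, so that reads may have been split between them.

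Rtp4, a receptor-transporting protein induced by interferon, had the largest fold of the 31 genes: 1.52 and 1.94 CPM with 6-shogaol, 8.33 and 8.50 CPM with 6-gingerol, and 5.21 and 7.81 CPM with LPS. Here 6-gingerol was 4.82-fold above 6-shogaol (log2 -2.27, SE 0.25, adjusted p = 0.000393), a fold that rests on low levels. Gm45338 overlaps Rtp4 on the same strand and Masp1 on the opposite strand, so reads may have been divided between them. Neither was among the genes tested. Further called effectors were Xaf1 (-1.74), Ifitm3 (-1.78), a membrane protein that hinders virus entry, Zbp1 (-1.19), a sensor of Z-form nucleic acid, Ifit1 (-0.99), which binds foreign RNA caps, Usp18 (-0.81), the protease that removes ISG15 and damps interferon receptors, and the RNA sensor gene Ddx58 (-0.72). Their adjusted p ranged from 0.000972 for Xaf1 to 0.0455 for Ddx58, and the calls of Ifitm3, Ddx58 and Ifit1 were lost in many alternatives. Ifitm3, with 1.64 and 1.16 CPM with 6-shogaol and 4.35 and 5.21 CPM with 6-gingerol, rests on low levels. Ifi27, which is induced by interferon and was on no list, was at 86.5 and 77.3 CPM with 6-shogaol, 159 and 176 CPM with 6-gingerol and 169 and 160 CPM with LPS (-1.03, adjusted p = 0.00142).

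Among the IRF and STAT factors and SOCS feedback genes, Irf7 was lower with 6-shogaol. Irf7, the interferon regulatory factor that amplifies the response, had 13.8 and 12.3 CPM with 6-shogaol, 38.1 and 34.7 CPM with 6-gingerol, 28.5 and 38.0 CPM with LPS and 2.36 and 3.07 CPM without treatment. Its log2 fold change was -1.48 (SE 0.19, 95% interval -1.88 to -1.08, adjusted p = 0.00107). Of the 23 genes tested on this list 18 were near equal, beside 72.2% of all genes tested, and the median was -0.05. Irf7 was the 1 gene of the list that edgeR called. DESeq2 called Jak2, a kinase of cytokine receptors, as well (-0.44, edgeR adjusted p = 0.0502), and Irf9, a factor of the interferon response, gave -0.54 (adjusted p = 0.139). The intervals of Irf7, Jak2 and Irf9 were the 3 on this list that lay below 0. Ifnb1, the gene of interferon beta, was on the list but not among the genes tested. The guanylate-binding proteins and IRG GTPases, which attack vacuoles of pathogens, had a median of -0.65, as low as the antiviral list. Of 9 tested members 8 were separated downward, beside 19.9% of all genes tested, and 6 intervals lay below 0, beside 3.63%. Of these 9 genes 0 were called by edgeR and 1, Gbp2, by DESeq2. Gbp2 had 6.28 and 8.03 CPM with 6-shogaol, 12.7 and 13.1 CPM with 6-gingerol and 20.5 and 16.4 CPM with LPS, so that all 3 groups were apart (-0.84, adjusted p = 0.0583). Among 16 tested genes of MHC class I and the immunoproteasome, which presents peptides to T cells, 0 were called by either tool. Of these 16, 5 intervals lay below 0, 14 genes were near equal and the median was -0.23. Separated downward were 12 and upward 0, beside 19.9% and 19.1% of all genes tested.

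**Figure D2:**
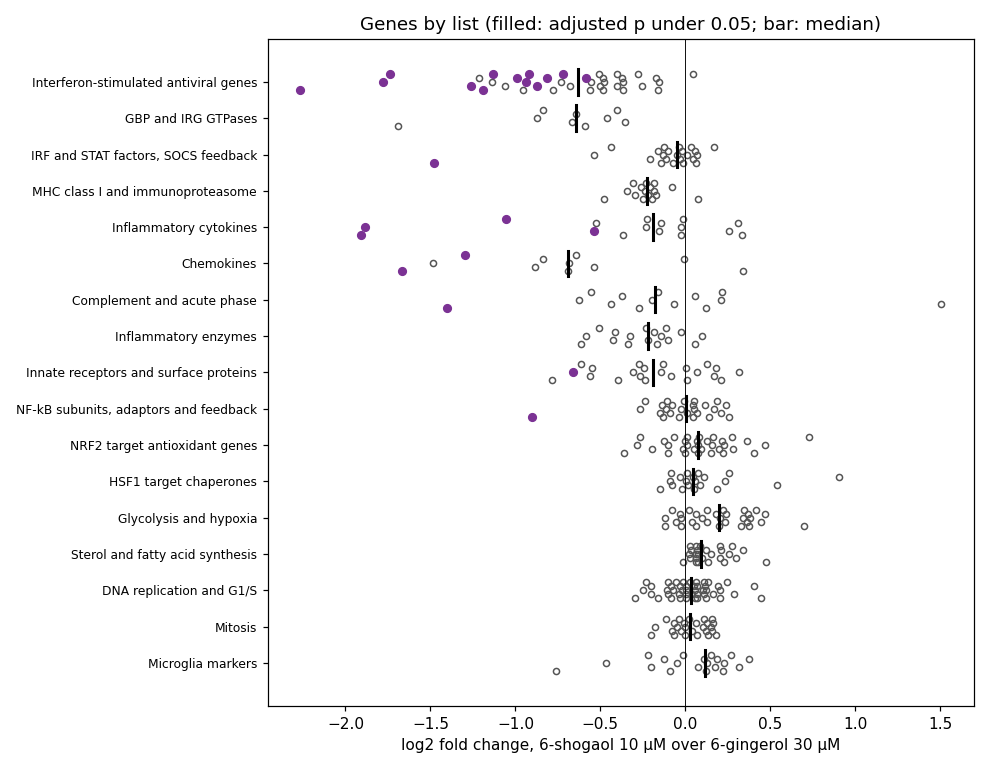
Log2 fold change of 10 µM 6-shogaol over 30 µM 6-gingerol (horizontal axis) for each tested gene of 17 lists (rows); filled points passed the test at an adjusted p under 0.05 and bars are list medians. Filled points lie left of 0 in the interferon, cytokine, chemokine, complement, receptor and NF-kB rows, while the NRF2, HSF1, glycolysis, sterol and cell cycle rows hold none.

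Of the inflammatory cytokines 16 of 24 were tested and 4 were lower with 6-shogaol: Il6, Lta, Il1rn and Tnf. Il6 (chr5:30013114-30019981), the acute-phase cytokine interleukin 6, had 32.9 and 25.5 CPM with 6-shogaol, 101 and 118 CPM with 6-gingerol, 212 and 194 CPM with LPS and 9.75 and 6.33 CPM without treatment. The 4 groups were separate, with the 6-gingerol libraries between those of 6-shogaol and LPS. The level with 6-gingerol was 3.75-fold that with 6-shogaol (log2 -1.91, SE 0.16, 95% interval -2.25 to -1.56, adjusted p = 3.09e-05). Tnf, the gene of tumour necrosis factor, had 89.2 and 96.9 CPM with 6-shogaol, 134 and 137 CPM with 6-gingerol and 144 and 155 CPM with LPS, a smaller difference of -0.54 (SE 0.09, adjusted p = 0.0127). Its neighbour Lta, lymphotoxin alpha, lies 1158 bases away on chromosome 17 and had 1.41 and 1.11 CPM with 6-shogaol, 5.02 and 4.25 CPM with 6-gingerol and 5.69 and 4.33 CPM with LPS (-1.88, adjusted p = 0.00656). Il1rn encodes the receptor antagonist that blocks interleukin 1, and it was lower as well: 30.0 and 28.2 CPM with 6-shogaol, 57.9 and 63.1 CPM with 6-gingerol and 73.1 and 68.8 CPM with LPS (-1.06, adjusted p = 0.00163). The median of the 16 cytokines was -0.19.

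Other cytokines did not pass the test. Il1a, interleukin 1 alpha, had 56.9 and 60.2 CPM with 6-shogaol, 62.5 and 75.3 CPM with 6-gingerol and 89.8 and 88.1 CPM with LPS, and the treatments were near equal (-0.23, interval -0.54 to 0.07). Csf3, the granulocyte colony-stimulating factor, had 2.35 and 1.21 CPM with 6-shogaol, 1.76 and 1.06 CPM with 6-gingerol and 3.45 and 4.67 CPM with LPS. In Csf3 the treatments overlapped and both lay under LPS, but at this level the interval of their difference ran from -0.55 to 1.17. The log2 difference of Csf3 from LPS was -1.22 (interval -1.99 to -0.45) with 6-shogaol and -1.53 (interval -2.32 to -0.74) with 6-gingerol. Il1b had 0.528 and 0.968 CPM with 6-shogaol and 0.828 and 1.37 CPM with 6-gingerol, with an interval of -1.46 to 0.41.

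Chemokines showed the lowest median of the inflammatory lists, -0.69. Of 11 tested members 9 were separated downward, beside 19.9% of all genes tested, and 8 intervals lay below 0, beside 3.63%. Called by edgeR were Ccl5 and Cxcl10. DESeq2 called Ccl2, Ccl4 and Cxcl2 as well. Ccl5, which draws T cells and monocytes, had 73.0 and 69.5 CPM with 6-shogaol, 190 and 263 CPM with 6-gingerol, 246 and 289 CPM with LPS and 1.90 and 1.12 CPM without treatment. The lower 6-gingerol library lay below both LPS libraries and the higher one between them, and both were well above 6-shogaol (-1.67, SE 0.18, 95% interval -2.06 to -1.28, adjusted p = 0.000442). Cxcl10, an interferon-induced ligand of CXCR3, had 83.2 and 82.1 CPM with 6-shogaol, 182 and 224 CPM with 6-gingerol and 245 and 257 CPM with LPS (-1.29, SE 0.11, adjusted p = 3.09e-05). Ccl2, the monocyte chemoattractant, was just outside the threshold with 32.9 and 34.7 CPM with 6-shogaol, 54.8 and 66.4 CPM with 6-gingerol and 82.3 and 76.7 CPM with LPS (-0.84, adjusted p = 0.0502), and it was called in 7 of 14 alternatives, library totals (0.044) and DESeq2 size factors (0.0441) among them. Cxcl2, a ligand for neutrophils, stood at the same adjusted p with a difference of -0.64. The last gene inside the threshold was Ddx58.

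**Figure D3:**
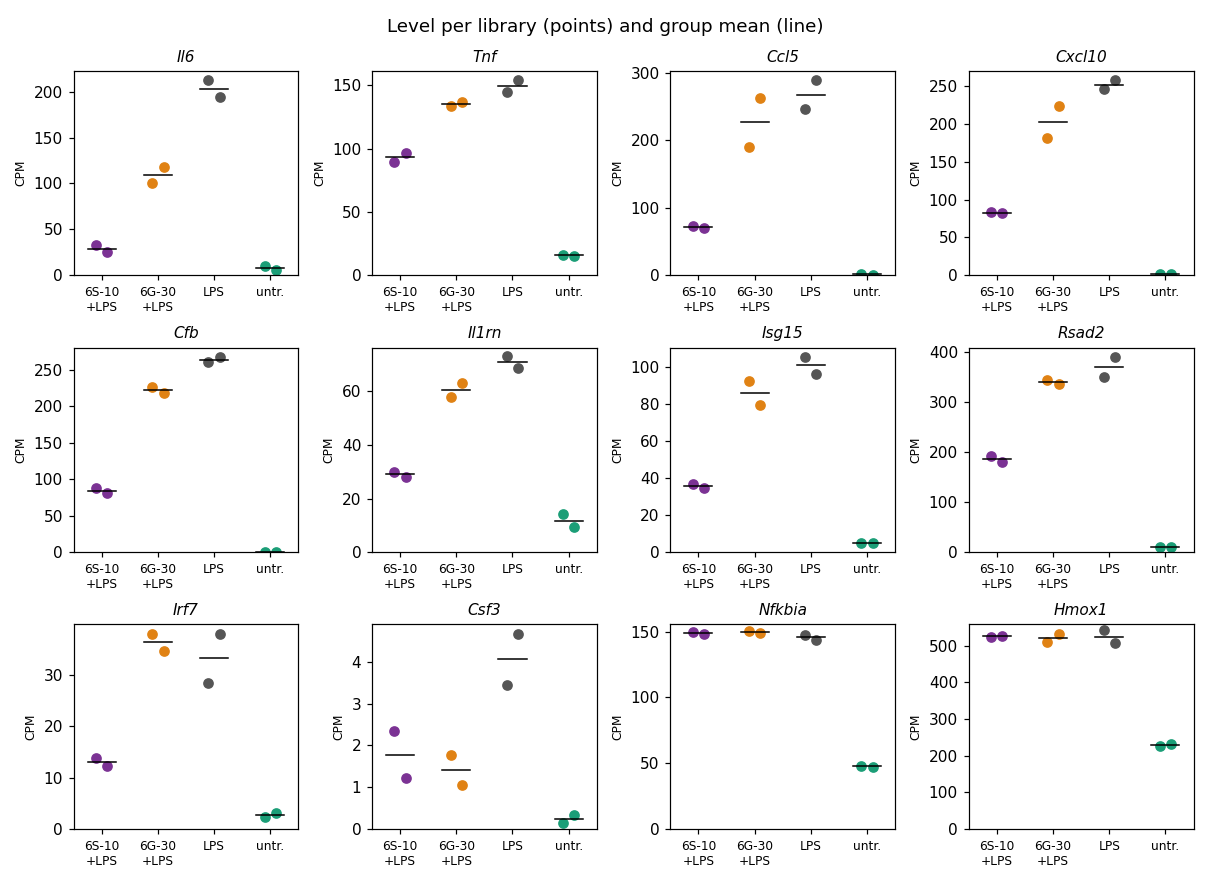
CPM (vertical axis, from 0) of 12 genes in the libraries of 10 µM 6-shogaol with LPS, 30 µM 6-gingerol with LPS, LPS alone and untreated cells (untr.); points are libraries and lines are means of 2. Il6 shows 4 separate groups, Irf7 and Rsad2 lie near LPS with 6-gingerol, Csf3 overlaps between the compounds, and Nfkbia and Hmox1 are level in all LPS-treated groups.

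Cfb, complement factor B of the alternative pathway, had the smallest adjusted p of all genes. It was at 88.1 and 80.5 CPM with 6-shogaol, 226 and 218 CPM with 6-gingerol, 261 and 267 CPM with LPS and 0.308 and 0.233 CPM without treatment. The 6-gingerol libraries lay 2.64-fold above those of 6-shogaol (log2 -1.40, SE 0.09, 95% interval -1.59 to -1.21, adjusted p = 1.64e-06). A readthrough gene, Gm20547, covers Cfb on the same strand, and reads may have been divided between them. Cfb was the 1 gene called of 14 tested complement and acute-phase genes, whose median was -0.18. The acute-phase genes Lcn2 and Saa3, both strongly expressed, gave differences of -0.63 (interval -0.99 to -0.27) and -0.56 (interval -0.88 to -0.24) that missed the threshold (adjusted p = 0.258 and 0.264), though DESeq2 called both. Saa3 was at 8782 and 7100 CPM with 6-shogaol, 11098 and 12276 CPM with 6-gingerol and 13286 and 14080 CPM with LPS. Haptoglobin, Hp, was near equal (0.12, interval -0.20 to 0.44).

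Among receptors, surface proteins and signalling proteins, Marco and Traf1 were lower with 6-shogaol. Marco, a scavenger receptor for bacteria and particles, had 170 and 173 CPM with 6-shogaol, 261 and 282 CPM with 6-gingerol and 308 and 303 CPM with LPS (-0.66, SE 0.09, adjusted p = 0.00191). It was the 1 gene that edgeR called of 22 on its list (median -0.19), where DESeq2 called Cd40 and Clec4e as well. Traf1, an adaptor of TNF receptors, had 17.2 and 16.4 CPM with 6-shogaol, 33.3 and 29.3 CPM with 6-gingerol and 40.6 and 40.1 CPM with LPS (-0.90, SE 0.13, adjusted p = 0.00291). Cd14, the LPS co-receptor, had 84.8 and 82.4 CPM with 6-shogaol, 111 and 109 CPM with 6-gingerol and 143 and 144 CPM with LPS, without overlap, but did not pass the test (-0.39, interval -0.65 to -0.14, adjusted p = 0.418). The co-stimulatory receptor gene Cd40 gave -0.56 (edgeR adjusted p = 0.0787), and Clec4e, a lectin receptor for mycobacterial glycolipid, gave -0.61 (edgeR adjusted p = 0.139).

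The NF-kB subunits, adaptors and feedback genes were otherwise level. All 26 listed genes were tested, Traf1 was the only one called, 24 were near equal and the median was 0.00. Nfkbia, which encodes the inhibitor IkB alpha and is an immediate NF-kB target, had 150 and 148 CPM with 6-shogaol, 150 and 149 CPM with 6-gingerol, 148 and 144 CPM with LPS and 48.3 and 47.2 CPM without treatment. Its difference between the treatments was -0.01 (interval -0.21 to 0.20). Tnfaip3, the feedback ubiquitin editor A20, gave -0.04 (interval -0.24 to 0.16). Of 17 tested inflammatory enzymes 0 were called by either tool, 11 were near equal and the median was -0.22. Intervals lay below 0 in 4 of the 17, beside 3.63% of all genes tested. Both 6-shogaol libraries lay below both 6-gingerol libraries in 12 and above both in 2, beside 19.9% and 19.1% of all genes tested. Acod1, which makes itaconate, had 857 and 953 CPM with 6-shogaol and 1050 and 1078 CPM with 6-gingerol (-0.23, interval -0.48 to 0.02), Cybb, the catalytic subunit of the phagocyte NADPH oxidase, gave -0.18 (interval -0.43 to 0.06), and the nitric oxide synthase gene Nos2 gave -0.42 with a wide interval of -0.83 to -0.0035. Kcnf1, a potassium channel subunit (-0.14), and the calcitonin receptor-like receptor gene Calcrl (-0.02) were further strongly LPS-induced genes with near-equal levels.

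The targets of NRF2, the factor of the antioxidant response that thiol-reactive compounds activate, gave no call in edgeR and 1 in DESeq2, the epoxide hydrolase gene Ephx1, which was higher with 6-shogaol. Of 33 tested genes 29 were near equal, beside 72.2% of all genes tested. The median was 0.07, with values from -0.36 to 0.73. Intervals lay above 0 in 6 genes and below it in 2, beside 2.15% and 3.63% of all genes tested. Both 6-shogaol libraries lay above both 6-gingerol libraries in 15 genes and below both in 3, beside 19.1% and 19.9% of all genes tested. Hmox1, heme oxygenase 1, had 524 and 527 CPM with 6-shogaol, 511 and 532 CPM with 6-gingerol, 542 and 507 CPM with LPS and 226 and 232 CPM without treatment (0.01, interval -0.22 to 0.24). Txnrd1, thioredoxin reductase, had 209 and 212 CPM with 6-shogaol, 218 and 204 CPM with 6-gingerol and 186 and 215 CPM with LPS. Gclm, the modifier subunit of glutathione synthesis, gave 0.16 (interval -0.05 to 0.36), Srxn1, sulfiredoxin, 0.05 (interval -0.14 to 0.25), and the cystine transporter gene Slc7a11 0.21 (interval -0.03 to 0.46). The intervals of these 5 genes all lay within a 1.5-fold difference either way.

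Stress programs gave 0 calls in edgeR and 1 in DESeq2, that of Ddit3. HSF1 target chaperones had 1 of 20 intervals above 0, 18 genes near equal and a median of 0.05, and Hspa8, the constitutive chaperone of this family, gave 0.25 (interval 0.02 to 0.49, adjusted p = 0.793). The inducible Hspa1a was below 1 CPM, and its interval of -0.42 to 2.22 says little. ATF4 targets had 2 of 30 intervals above 0, 1 below and a median of -0.06, with Atf3 at -0.18 (interval -0.38 to 0.02) and Trib3 at -0.10 (interval -0.44 to 0.24). All 21 ER chaperones were near equal, although 3 intervals lay below 0. Among 27 immediate early genes (median 0.00) 2 intervals lay below and 3 above 0, among 34 lysosome and autophagy genes (median -0.10) 3 lay below, and among 7 metallothioneins and zinc transporters (median 0.05) 0 did. Neither tool called any gene of these 4 lists. Over all genes tested, 3.63% of intervals lay below 0 and 2.15% above it. Both 6-shogaol libraries lay below both 6-gingerol libraries in 19 of the 34 lysosome and autophagy genes and above both in 5. These counts were 8 and 2 for ER chaperones, 0 and 6 for HSF1 targets, 11 and 9 for ATF4 targets and 7 and 6 for immediate early genes. All genes tested showed 19.9% and 19.1%.

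Growth and metabolism, Mdm2 aside, gave 0 calls in edgeR, and DESeq2 called Scd2, Bnip3 and Npc2. For DNA replication 43 of 46 genes were near equal, and for mitosis all 26. Cytosolic ribosomal proteins had a median of -0.11 with 31 of 32 near equal, and nuclear genes of the respiratory chain a median of -0.03 with 30 of 31 near equal. No interval left out 0 in these last 3 lists, and for DNA replication 3 lay above and 1 below. Of the ribosomal genes 0 were separated upward and 11 downward, and of the respiratory chain genes 1 upward and 8 downward. For mitosis these counts were 9 and 3, and for DNA replication 12 and 8. Over all genes tested, 2.15% of intervals lay above 0, and 19.1% of genes were separated upward and 19.9% downward. Glycolysis and hypoxia genes stood highest of the lists of 5 or more genes, with a median of 0.20. Of 31 such genes 11 had intervals above 0 and 0 below, and 19 were separated upward and 2 downward. Among these, chosen after their values were seen, the oxygen sensor gene Egln1 had 65.7 and 66.1 CPM with 6-shogaol and 51.2 and 44.1 CPM with 6-gingerol (0.47, interval 0.18 to 0.76, adjusted p = 0.357), and Bnip3, a mitophagy receptor, gave 0.41 (interval 0.18 to 0.65, adjusted p = 0.259). Sterol and fatty acid synthesis had a median of 0.09 with 4 of 26 intervals above 0 and 0 below. Of these 26 genes 12 were separated upward and 0 downward. LXR targets had a median of 0.07 over 14 genes, with 5 separated upward and 3 downward. Of 18 tested p53 targets Mdm2, the ubiquitin ligase that degrades p53, was the 1 called: 90.7 and 91.6 CPM with 6-shogaol, 137 and 143 CPM with 6-gingerol, 146 and 158 CPM with LPS and 75.3 and 61.5 CPM without treatment (-0.62, adjusted p = 0.0227). The median of the p53 list was 0.05. The 20 tested microglia markers had 0 calls by either tool and a median of 0.11, with 1 interval below and 1 above 0, and none of the 9 tested genes among the markers of other cell types (2 astrocyte, 2 oligodendrocyte, 4 fibroblast or endothelial and 1 lymphocyte or neutrophil gene) was called.

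The 1 gene that was higher with 6-shogaol was mt-Nd3, a mitochondrially encoded subunit of respiratory complex I. It had 76.8 and 68.9 CPM with 6-shogaol, 46.5 and 36.6 CPM with 6-gingerol, 62.4 and 70.9 CPM with LPS and 105 and 108 CPM without treatment. The 6-gingerol libraries were the low ones, while the 6-shogaol and LPS libraries overlapped. The log2 difference was 0.81 (SE 0.14, 95% interval 0.50 to 1.11, adjusted p = 0.0227), and it was not called without either 6-shogaol library or without 6-gingerol replicate 2 (adjusted p = 0.289, 0.119 and 0.401). The other 12 mitochondrially encoded mRNAs were not called, ranged from -0.65 to 0.17, and with mt-Nd3 had a median of 0.03.

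The remaining called genes were on no list. Dcbld2, a transmembrane protein, had 28.0 and 27.0 CPM with 6-shogaol, 49.7 and 42.8 CPM with 6-gingerol and 48.3 and 48.6 CPM with LPS (-0.75, adjusted p = 0.00291). Slamf7, a receptor of the SLAM family on immune cells, had 2.52 and 2.52 CPM with 6-shogaol and 6.16 and 5.26 CPM with 6-gingerol (-1.18, adjusted p = 0.0227). Heatr9 lies 3603 bases from Ccl5 on chromosome 11 and had 0.587 and 0.629 CPM with 6-shogaol, 2.07 and 2.28 CPM with 6-gingerol and 1.94 and 2.48 CPM with LPS (-1.82, adjusted p = 0.0455, called in 5 of 14 alternatives). Gm13571, a noncoding RNA gene, was at 71.4 and 71.4 CPM with 6-shogaol and 122 and 149 CPM with 6-gingerol (-0.93, adjusted p = 0.00291). It runs opposite to Ly75, and the strand setting of the counting is not given in the sources used here, so reads of both may be mixed, as may those of Irf7 and Phrf1. Phf11b (-1.24, adjusted p = 0.0385, called in 7 of 14 alternatives) was the 1 gene called lower outside the LPS-induced class, and it has close relatives in its family that can share reads.

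Against LPS alone, the treatments stood at different distances. These comparisons share the LPS libraries, so their values are set side by side as a description. In the edgeR test 73 genes were lower with 6-shogaol than with LPS at an adjusted p under 0.05 (0.575% of genes tested). With 6-gingerol 0 (0%) were. An unadjusted p under 0.05 was found for 1378 of the 12705 genes with 6-shogaol and for 189 with 6-gingerol. Where nothing differs, a share of about 0.05 would be reached, and the 6-gingerol count lies under that share. DESeq2 called 2 genes for 6-gingerol, Il6 and mt-Nd3. The 95% interval lay below LPS for 6.46% of all genes with 6-shogaol and for 0.882% with 6-gingerol. Over the 370 LPS-induced genes the median log2 difference from LPS was -0.44 with 6-shogaol and -0.12 with 6-gingerol. Over those on the interferon lists, 38 genes, it was -0.90 with 6-shogaol and -0.11 with 6-gingerol. Over the 45 on the inflammatory lists it was -0.70 with 6-shogaol and -0.19 with 6-gingerol.

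In 195 LPS-induced genes the interval of 6-shogaol lay below LPS, and in 26 of them that of 6-gingerol did too. In these 195 genes the change with 6-gingerol was expressed in percent of that with 6-shogaol on the log2 scale, with no test. The 195 were chosen by their 6-shogaol difference and not by that of 6-gingerol, which by itself tends to make the share small. The share had a median of 24.7% and quartiles of 10.3% and 41.2%. It was below 0 in 29 genes, where 6-gingerol lay above LPS, from 0 to 50% in 138, from 50 to 100% in 25 and 100% or more in 3. Over the 30 genes called lower the share ran from -18.9% for Rtp4 to 31.9% for Il6, with a median of 12.6%, and 7 were below 0. These genes were selected for a difference between the treatments, so that their shares could not lie near 100%. Il6 thus carried the largest share of these genes: its log2 difference from LPS was -2.80 (interval -3.15 to -2.45) with 6-shogaol and -0.89 (interval -1.22 to -0.57) with 6-gingerol. Traf1 (28.8%) and Ifit1 (28.7%) came next, Cxcl10 was at 19.3%, Cfb at 15.0% and Ccl5 at 12.5%, while Oasl2 (4.06%) and Usp18 (1.03%) were at LPS level with 6-gingerol. Irf7 (-9.36%), Xaf1 (-11.9%) and Oas3 (-16.3%) had 6-gingerol means above LPS, within intervals that include 0.

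**Figure D4:**
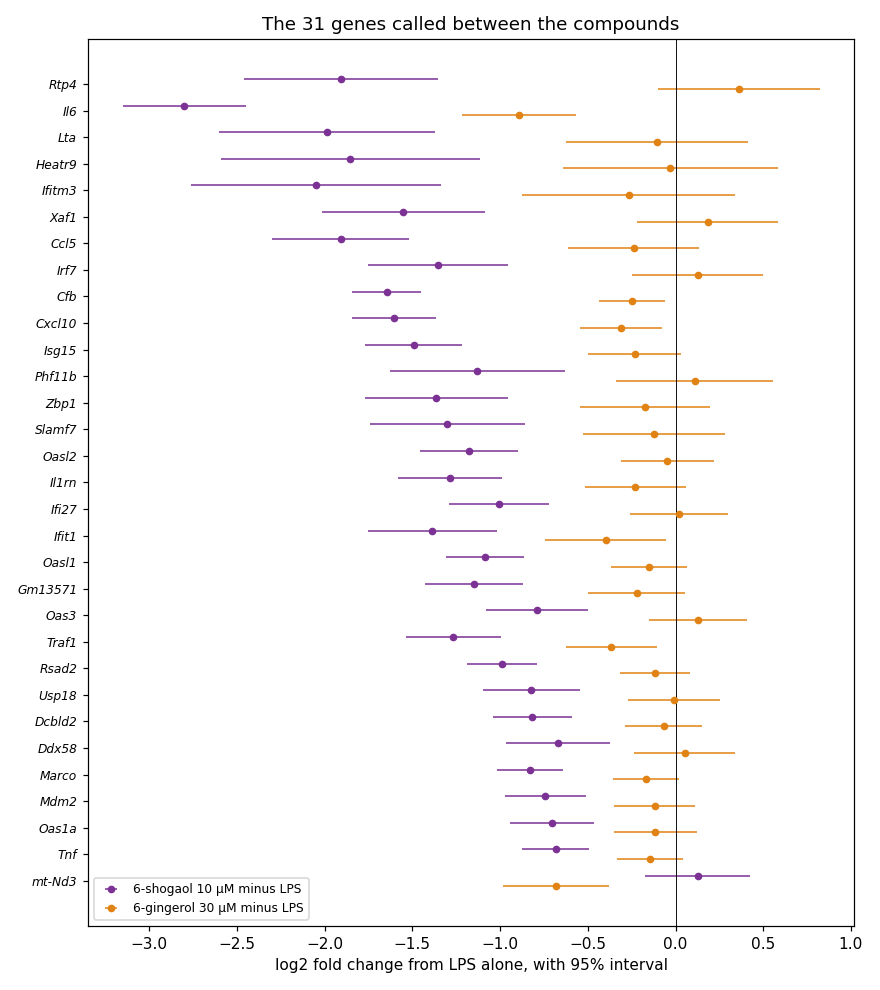
Log2 fold change from LPS alone, with 95% intervals (horizontal axis), of 10 µM 6-shogaol and of 30 µM 6-gingerol for the 31 genes called between the treatments (rows). The 6-shogaol points lie from -2.80 for Il6 to -0.67 for Ddx58 in the 30 lower genes, while 6-gingerol intervals include 0 in all of these except Il6, Cfb, Cxcl10, Traf1 and Ifit1; both treatments share the LPS libraries.

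Some LPS-induced genes that were not called had larger shares, as the selection of the called genes implies. Among LPS-induced genes of at least 5 CPM whose intervals lay below LPS with both treatments, chosen after their values were seen, the share was 115% for Gm21985, 108% for Cdc42ep2, an effector of the GTPase CDC42, and 61.2% for Il1a. Cdc42ep2 had 13.4 and 15.1 CPM with 6-shogaol, 13.4 and 14.6 CPM with 6-gingerol and 19.4 and 16.9 CPM with LPS. These levels overlapped between the treatments, and their difference was 0.03 (interval -0.28 to 0.34). Ptgs2, the inducible cyclooxygenase, was at 45.8%: 52.8 and 55.0 CPM with 6-shogaol, 67.4 and 69.1 CPM with 6-gingerol and 84.7 and 81.9 CPM with LPS. The formyl peptide receptor gene Fpr1 was at 64.2% and the transcription regulator gene Id3 at 44.9%. Csf3, LPS-induced but under 5 CPM, was at 125%. Cd14, which LPS did not induce, was at 49.4%. For 6-gingerol against LPS the lowest adjusted p of any gene was 0.378, for Il6 (edgeR).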

How the data were processed

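Stranded mRNA libraries of BV2 cells were sequenced in paired-end mode, per the labels' protocols. Per the submitters' processing notes, the build was GRCm38 and the tools included RSEM 1.3.3, STAR 2.7.11b, DESeq2 1.44.0 (in R 4.4.2), FastQC 0.12.1 and Trimmomatic 0.39, with no role or order stated. The deposited gene tables hold RSEM expected counts, per the file headers, of which 7.03% are not whole. They were rounded before testing. RSEM divides reads that fit several genes, so levels of near-identical genes are uncertain, and the strand setting is not given in the sources used here. The fragment length of a library came from the lengths and effective lengths of its genes in the deposited tables. A normalized signal per gene that the authors deposited (18013 genes, normalization not stated) served 1 alternative, as log2(value + 1).

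All 12 libraries were fitted with 6 group means in edgeR 4.0.16 (R 4.3.3): filterByExpr, TMM, robust quasi-likelihood F test, 6 residual degrees of freedom, common coefficient of variation 9.45%. P-values are 2-sided and adjusted by Benjamini-Hochberg over 12705 genes. The code was tested on simulated data. Levels are CPM per library, with 2 libraries a group. Positions and symbols are from GENCODE M21, which matched 97.8% of 43432 identifiers. Genes were described by 32 lists. Named were a panel, all called genes, up to 3 called genes a list, and the 6 near-equal genes with the largest LPS response; a gene named beyond these was chosen after its values were seen. The comparison, panel and lists were chosen with earlier results of these data known. Alternatives changed the scaling, filter, test (DESeq2 1.42.0, limma 3.58.1), libraries and covariates.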

Additional observations from a re-analysis of the deposited data

How the results depend on the processing

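The count of 31 called genes became 125 with no filter on low counts, 62 with DESeq2, 17 with limma-trend on the authors' table, 114 with the 4 libraries alone and 68 without the untreated libraries, and 10 to 17 with 1 library left out. The count of 29 LPS-induced genes called lower became 67, 46, 16, 68 and 54 in the same 5 alternatives, and 9 to 17 with 1 library left out, where the lone sample is assumed to vary like the other groups. Genes called higher numbered 28 with no filter, 9 with DESeq2, 22 with the 4 libraries alone and 8 without the untreated libraries. In each of the 14 alternatives 0 LPS-induced genes were called higher. DESeq2 size factors gave 35 calls, library totals 29, limma-voom 32 and fragment length as a covariate 26. Deviations of same-numbered libraries of 10 µM 6-shogaol and 30 µM 6-gingerol correlated at -0.0358, which shows no pairing of these 2 groups by number. Over all pairs of groups this correlation ran from -0.312, untreated with 30 µM 6-gingerol, to 0.178, 10 µM with 30 µM 6-gingerol. A fit with the replicate block gave 29 calls, 28 of them LPS-induced and lower. All called genes kept their sign in every alternative. Over comparisons of single named genes, a call was lost in 100 and gained in 23. In 9 more, an uncalled gene stayed uncalled but moved by more than 1 standard error. In the other 694, a called gene stayed called, or an uncalled one stayed uncalled within 1 standard error. The cause of these changes was not tested. With 2 libraries a group, differences under about 0.29 on the log2 scale were mostly below what the intervals could show. The adjusted test took more, and the smallest difference called in the main fit was that of Tnf, -0.54.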
